A study of Mus musculus with 4 samples.

Results

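The genes for the TGF-beta ligands, their receptors and the proteins that keep the ligands latent were followed across the cell lineages of fibrotic mouse lung. The members were a list of 10 genes of the 32286 genes counted, namely Tgfb1, Tgfb2, Tgfb3, Tgfbr1, Tgfbr2, Tgfbr3, Ltbp1, Ltbp2, Tgfbi and Smad7, and all 10 passed the filter on low counts in each of the 6 lineages tested. The lungs came from 2 WT mice and 2 Tubb3-/- littermates aged 8 to 11 weeks and were taken 14 days after a single intratracheal dose of bleomycin at 0.8 U/kg. All 4 mice had received bleomycin, so the data hold no uninjured lung. Tubb3 encodes β-III tubulin, a neuronal tubulin isotype, and the Tubb3-/- mice were homozygous for a Cre knock-in at its translation start, so the gene was lost in every cell type and not in a chosen lineage. Each mouse gave a whole-cell suspension, depleted of red blood cells with TER-119, and a mesenchymal suspension, depleted of CD31-, CD45-, EpCAM- and TER-119-positive cells. The cells of the 4 mice were tagged and pooled by suspension. From the mesenchymal pool, MCAM+PDGFRα- and MCAM- cells were then sorted and mixed 1:1, which gave the mural cell-enriched suspension. Both pools were sequenced with a droplet method that counts unique molecular identifiers (UMIs) near the 3′ end of transcripts.

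The 3 TGF-beta ligands are secreted as latent dimers, in which a propeptide cut from the same precursor holds the ligand inactive. Latent TGF-beta binding proteins (LTBPs) tether this complex to the matrix, from which integrins and proteases release the ligand. Released ligand brings together a type II and a type I receptor kinase, the type I kinase phosphorylates SMAD2 and SMAD3, and these carry the signal to target genes, of which matrix genes of fibroblasts are the best known in lung fibrosis.

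Lineages were gated by single genes, since no cell annotation was used. A cell was called immune with at least 1 UMI of Ptprc, endothelial with Cdh5, epithelial with Epcam, mesothelial with Msln, mural with Higd1b or Myh11, and fibroblast with Pdgfra, and cells that met more than 1 gate were dropped. Of 30092 cells analysed, 3786 were fibroblasts, 4518 mural, 4365 immune, 2274 endothelial, 320 epithelial and 322 mesothelial, while 13746 (45.7%) met several gates and 761 met none. Fibroblast and mural genes together accounted for 42.4% of the cells that met several gates, so the 2 mesenchymal gates describe only the cells that carried one mark and not the other. Markers not used for gating were 24.5- to 65.1-fold higher in their own gate than in the next one, apart from the fibroblast list (Col1a1, Col1a2, Col3a1, Dcn, Lum, Pdgfrl), which was 2.10-fold higher in fibroblasts than in mesothelial cells. The 8 libraries held 41462258 to 95036340 gene UMIs and their median cell held 9186 to 16299 UMIs, with the Tubb3-/- library the deeper one for each suspension and replicate number. Tubb3 stood at 0.868 to 5.49 CPM in the WT libraries and at 0.262 to 0.789 CPM in the Tubb3-/- libraries. Replicate 1 of each genotype was male and replicate 2 female by Xist and Ddx3y. No cell barcode was shared between mice within a pool, and 59 of 32062 barcodes occurred in both pools, 22 of them in the same mouse.

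For each mouse and lineage the UMIs of a gene were summed over both suspensions and scaled to the total UMIs of that sum, as CPM. These CPM values are levels over a gate, in which a larger share of cells using the gene and more RNA per cell cannot be told apart. Immune sums came mostly from the whole-cell suspension (931 to 1186 cells per mouse, against 13 to 32 in the enriched one). Mural sums came mostly from the mural cell-enriched suspension (720 to 1162 cells per mouse, against 86 to 142 in the whole-cell one). Values of one gene were compared between lineages, and values of different genes were not compared with each other. A lineage difference was tested on the 24 sums of 4 mice and 6 lineages with edgeR's quasi-likelihood test, with the mouse as a block, and log2 differences are on edgeR's TMM-normalized scale. Such tests passed for 41.8% to 75.6% of all genes in the 15 pairs of lineages.

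Tgfb1 encodes the ligand most widely made by blood and endothelial cells. It lies at chr7:25687002-25705077 on the forward strand of mm10, and no other annotated gene overlaps it. The 250 bases before its start, from RefSeq (GRCm38.p6, chr7:25686752-25687001, forward strand), are shown because Tgfb1 and Tgfb2 differed both in lineage and in the letters just before the gene, with capitals for the GC box (GGGCGG, or CCGCCC on the other strand). A link between these letters and the lineage was not tested.

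Tgfb1: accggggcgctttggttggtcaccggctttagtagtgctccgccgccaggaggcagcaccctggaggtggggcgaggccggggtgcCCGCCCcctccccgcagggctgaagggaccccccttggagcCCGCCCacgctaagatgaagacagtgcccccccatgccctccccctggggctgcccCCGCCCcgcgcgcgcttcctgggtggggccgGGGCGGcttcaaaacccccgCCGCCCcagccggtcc

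The Tgfb1 window held 5 GC boxes, no TATAAA and no CACGTG on either strand, and 75.2% G or C, where the median over 32851 windows of 250 bases before gene starts was 52.4% and 32.74% of windows held a GC box. Tgfb1 was highest in immune cells, at 188 and 212 CPM in WT replicates 1 and 2 and at 164 and 169 CPM in Tubb3-/- replicates 1 and 2. Endothelial cells held 96.4 to 123 CPM in the 4 mice, below every immune value. The immune level exceeded the endothelial one by 0.98 ± 0.16 (SE) on the log2 scale (adjusted p = 1.29e-05, edgeR quasi-likelihood test, Benjamini-Hochberg over 16350 genes, of which 65.6% differed between these lineages). Mesothelial cells (51.0 CPM on average) and fibroblasts (43.7 CPM) did not differ beyond their spread (adjusted p = 0.856, edgeR), mural cells followed at 34.0 CPM, and epithelial cells were lowest at 19.1 CPM.

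Tgfb2 encodes a ligand typical of mesenchymal and mesothelial cells. It lies at chr1:186622792-186705989 on the reverse strand, where the snoRNA gene Gm26169 and the antisense gene Gm29491 overlap it, and the sources do not say if reads were counted by strand. Its 250 bases before the start (chr1:186705990-186706239, reverse strand, 5′ to 3′ along the gene, RefSeq GRCm38.p6) are given with TATAAA and the E-box CACGTG in capitals.

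Tgfb2: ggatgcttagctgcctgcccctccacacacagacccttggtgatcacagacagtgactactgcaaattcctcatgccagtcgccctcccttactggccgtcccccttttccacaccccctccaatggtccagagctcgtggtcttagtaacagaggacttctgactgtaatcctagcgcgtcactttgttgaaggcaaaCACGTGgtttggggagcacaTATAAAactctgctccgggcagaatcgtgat

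This window held 1 TATAAA (31 bases before the start), 1 CACGTG (51 bases before it) and no GC box, at 53.6% G or C. TATAAA or its reverse complement TTTATA stood in 12.37% and CACGTG in 6.021% of all windows of that length. Tgfb2 was highest in mural cells, with 323 and 277 CPM in WT and 329 and 236 CPM in Tubb3-/- mice. Mesothelial cells held 311 and 229 CPM in WT and 271 and 226 CPM in Tubb3-/- mice, so these gates overlapped and did not differ beyond the spread (log2 0.37 ± 0.18, adjusted p = 0.105, edgeR; 44.1% of all genes differed between them). Fibroblasts held 58.6 to 89.2 CPM, below every mural and mesothelial value, and the mesothelial level exceeded theirs by 1.499 ± 0.18 on the log2 scale (adjusted p = 6.73e-07, edgeR). Tgfb2 was lower again in epithelial cells (43.2 CPM), endothelial cells (16.9 CPM) and immune cells (10.4 CPM), and the last 2 did not differ beyond their spread (adjusted p = 0.0983, edgeR).

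Tgfb3 encodes a ligand of mesenchymal cells. It lies at chr12:86056745-86079041 on the reverse strand, within a stretch also covered by Ttll5 on the forward strand. Fibroblasts held 95.4 and 104 CPM of Tgfb3 in WT and 109 and 122 CPM in Tubb3-/- mice, mural cells 91.4 to 113 CPM, and mesothelial cells 77.2 to 114 CPM. These 3 gates overlapped. Fibroblasts and mural cells did not differ beyond their spread (log2 0.12 ± 0.12, adjusted p = 0.465, edgeR; 44.5% of all genes differed between them), whereas the mural level exceeded the mesothelial one by 0.38 ± 0.14 (adjusted p = 0.0257, edgeR). The other lineages were far below, at 16.2 CPM in epithelial, 6.79 CPM in endothelial and 4.86 CPM in immune cells, and the mesothelial level exceeded the epithelial one by 2.44 ± 0.18 on the log2 scale (adjusted p = 3.22e-10, edgeR). Tgfb1 was thus highest where Tgfb2 and Tgfb3 were lowest, and across the 24 sums the log2 CPM of Tgfb2 and Tgfb3 had a Pearson r of 0.91, while Tgfb1 had an r of −0.59 with Tgfb2 and −0.57 with Tgfb3. These correlations describe 6 lineages of the same 4 mice and share their libraries and depth.

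**Figure D1:**
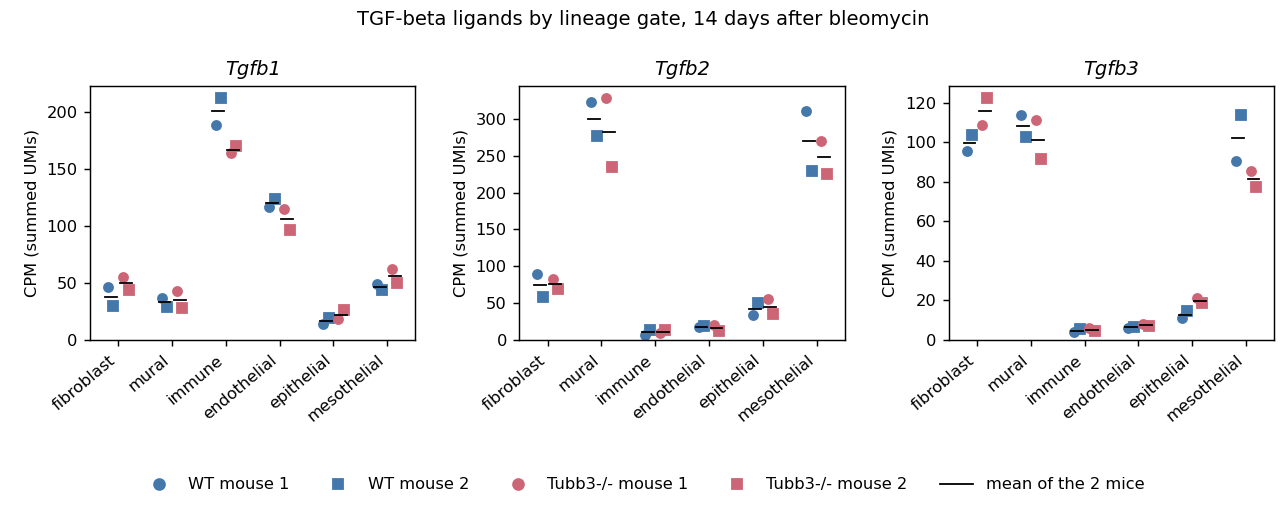
CPM of summed UMIs of Tgfb1, Tgfb2 and Tgfb3 in each of the 6 lineage gates, with 1 point per mouse (WT and Tubb3-/-, 2 each) and a bar at the mean of each genotype. Tgfb1 peaks in immune cells at 164 to 212 CPM, Tgfb2 in mural and mesothelial cells, and Tgfb3 in fibroblasts, mural and mesothelial cells, with Tgfb3 at or below 20.9 CPM elsewhere.

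Tgfbr1 encodes the type I receptor kinase, which phosphorylates SMAD2 and SMAD3. It had the narrowest range over the lineages of the 3 receptors with respect to its lowest gate, 3.77-fold from epithelial to immune cells, against 4.51-fold for Tgfbr2 and 21.5-fold for Tgfbr3. Immune cells held 115 and 129 CPM in WT and 139 and 158 CPM in Tubb3-/- mice, and fibroblasts 94.6 and 102 CPM in WT and 110.3 and 109.96 CPM in Tubb3-/- mice. All 4 immune values stood above the 4 fibroblast values, by 0.37 ± 0.11 on the log2 scale (adjusted p = 0.00472, edgeR; 75.5% of all genes differed between them). In the whole-cell suspension alone the values overlapped, at 109 to 143 CPM in immune cells and 87.0 to 116 CPM in fibroblasts, though the difference was still called. The few immune cells of the mural cell-enriched suspension held 285 to 634 CPM. Mural cells followed at 89.9 CPM, mesothelial cells at 63.1 CPM and endothelial cells at 56.0 CPM, of which the last 2 did not differ beyond their spread (adjusted p = 0.363, edgeR), and epithelial cells were lowest at 35.8 CPM.

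Tgfbr2 encodes the type II receptor kinase, which binds the ligand and activates the type I receptor. Fibroblasts held 477 and 531 CPM in WT and 560.2 and 608 CPM in Tubb3-/- mice, and no value of another lineage came above 217 CPM. The fibroblast level exceeded the mural one (177 to 217 CPM) by 1.57 ± 0.12 on the log2 scale (adjusted p = 1.95e-10, edgeR). Mural and immune cells (193 and 187 CPM on average) did not differ beyond their spread (adjusted p = 0.814, edgeR), nor did mesothelial, endothelial and epithelial cells, each with the next one (adjusted p = 0.206 and 0.142, edgeR).

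Tgfbr3 encodes betaglycan, a co-receptor that binds all TGF-beta ligands and presents TGF-beta2 to the signalling receptors. Mesothelial cells held 232 and 274 CPM in WT and 348 and 408 CPM in Tubb3-/- mice, and fibroblasts held 269 and 362 CPM in WT and 199 and 252 CPM in Tubb3-/- mice. The mesothelial and fibroblast values overlapped and did not differ beyond their spread (log2 −0.05 ± 0.16, adjusted p = 0.83, edgeR; 41.8% of all genes differed between them). Mural cells came next at 192 to 232 CPM, below fibroblasts by 0.42 ± 0.15 on the log2 scale (adjusted p = 0.0268, edgeR), and endothelial cells at 122 to 148 CPM. Immune and epithelial cells held 17.3 and 14.7 CPM on average, below endothelial cells by a wide step of 2.67 ± 0.17 (log2, adjusted p = 3.46e-12, edgeR).

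**Figure D2:**
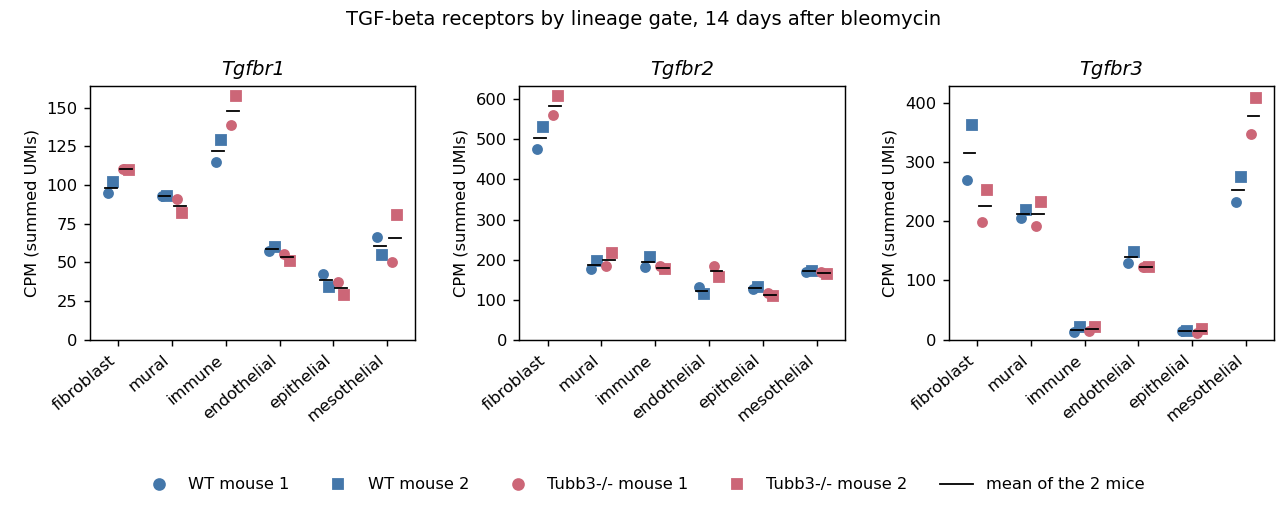
CPM of summed UMIs of the receptor genes Tgfbr1, Tgfbr2 and Tgfbr3 in the 6 lineage gates, with 1 point per mouse by genotype and a bar at the mean of each genotype. Tgfbr2 stands apart in fibroblasts (477 to 608 CPM), Tgfbr1 spans 3.77-fold between the lineage means, and Tgfbr3 is low in immune and epithelial cells, at 11.1 to 21.5 CPM.

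Ltbp1 encodes the latent binding protein that carries the latent TGF-beta complex to the matrix. Mural cells held 465 and 399.8 CPM in WT and 435 and 430.4 CPM in Tubb3-/- mice, and fibroblasts 340.4 to 379 CPM. No fibroblast value reached a mural value, but the difference of 0.19 ± 0.21 on the log2 scale did not pass the test (adjusted p = 0.514, edgeR). In the whole-cell suspension alone the values overlapped, at 307 to 446 CPM in mural cells and 328 to 363 CPM in fibroblasts. Mesothelial cells (207 CPM) and endothelial cells (103 CPM) followed, each below the one before it (adjusted p = 0.000468 and 0.000934, edgeR), and immune and epithelial cells were at 14.6 and 9.81 CPM.

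Ltbp2 encodes a microfibril protein of the same family that, unlike Ltbp1, does not bind latent TGF-beta. It lies at chr12:84783212-84876532 on the reverse strand, overlapped by the antisense gene D030025P21Rik. Fibroblasts held 217 and 168 CPM of Ltbp2 in WT and 401 and 420.3 CPM in Tubb3-/- mice. Mural cells held 142 to 258 CPM and did not differ from fibroblasts beyond the spread (log2 0.43 ± 0.29, adjusted p = 0.249, edgeR). Mesothelial cells held 14.9 to 186 CPM, endothelial, epithelial and immune cells at most 20.2 CPM.

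Tgfbi encodes a secreted matrix protein named for its induction by TGF-beta. It lies at chr13:56609523-56639562 on the forward strand, with no overlapping gene. Immune cells held 211 and 219.8 CPM in WT and 296 and 278 CPM in Tubb3-/- mice, and mural cells held 64.1 and 53.8 CPM in WT and 88.4 and 89.2 CPM in Tubb3-/- mice. The immune level exceeded the mural one by 1.86 ± 0.18 on the log2 scale (adjusted p = 3.17e-09, edgeR; 75.6% of all genes differed between them), and the mural one exceeded the mesothelial one by 2.11 ± 0.25 (adjusted p = 3.35e-07, edgeR). Fibroblasts held 10.48 to 21.6 CPM of Tgfbi, a level that did not differ from that of mesothelial or endothelial cells beyond the spread (adjusted p = 0.911 and 0.0833, edgeR).

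Smad7 encodes the inhibitory SMAD that binds the type I receptor and is itself a target of the pathway. Endothelial cells held 326 and 362 CPM in WT and 339 and 316 CPM in Tubb3-/- mice, above all other values. Fibroblasts held 133 to 185 CPM, lower by 0.86 ± 0.12 on the log2 scale (adjusted p = 1.06e-06, edgeR; 63.1% of all genes differed between them). Mural cells (105 CPM), immune cells (83.4 CPM) and mesothelial cells (61.2 CPM) followed in falling order, each step passing the test (adjusted p = 9.22e-05, 0.0471 and 7.61e-05, edgeR), and mesothelial and epithelial cells (59.5 CPM) did not differ beyond their spread (adjusted p = 0.935, edgeR).

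The stretches before the starts of Ltbp2 and Tgfbi, the 2 members whose genotypes separated in the same direction in 4 lineages, are shown (RefSeq GRCm38.p6, chr12:84876533-84876741 on the reverse strand and chr13:56609336-56609522 on the forward strand), with the SMAD element CAGAC, or GTCTG on the other strand, in capitals.

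Ltbp2: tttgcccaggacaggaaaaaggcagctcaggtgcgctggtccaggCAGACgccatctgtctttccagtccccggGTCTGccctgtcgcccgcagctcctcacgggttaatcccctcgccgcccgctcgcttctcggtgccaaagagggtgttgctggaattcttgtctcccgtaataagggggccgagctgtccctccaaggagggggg
Tgfbi: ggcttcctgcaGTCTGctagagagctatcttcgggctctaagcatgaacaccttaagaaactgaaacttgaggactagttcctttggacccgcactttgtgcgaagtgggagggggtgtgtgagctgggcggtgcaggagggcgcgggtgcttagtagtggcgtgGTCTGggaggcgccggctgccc

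Each of these 2 windows held 2 SMAD elements. The same 5 letters stood in 37.07% of all windows of 209 bases, the length shown for Ltbp2, and in 34.21% of those of 187 bases, the length shown for Tgfbi, and the Tgfb2 window above also held 2 of them. A link between these elements and the genotype values was not tested.

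**Figure D3:**
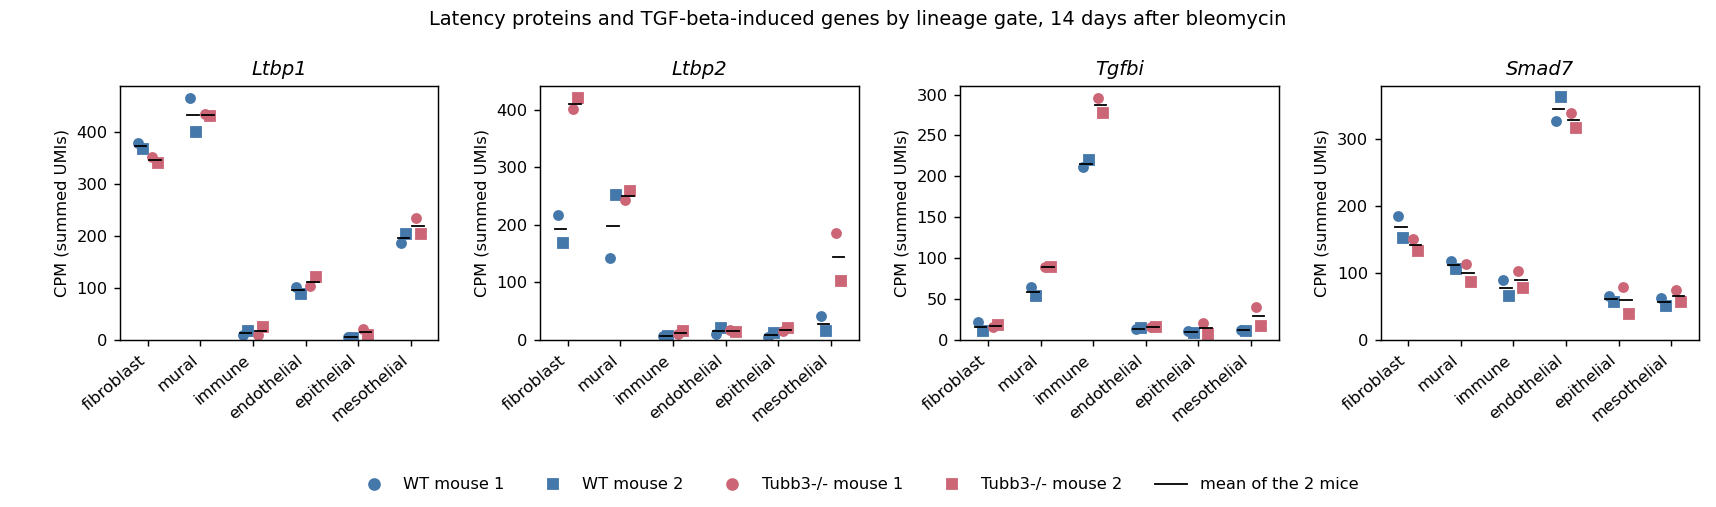
CPM of summed UMIs of Ltbp1, Ltbp2, Tgfbi and Smad7 in the 6 lineage gates, with 1 point per mouse by genotype and a bar at the mean of each genotype. Ltbp1 and Ltbp2 lie highest in mural cells and fibroblasts, Tgfbi in immune cells (211 to 296 CPM) and Smad7 in endothelial cells (316 to 362 CPM), and the WT and Tubb3-/- points of Ltbp2 separate in fibroblasts and mesothelial cells.

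Of the 10 members, 5 had their highest lineage above the next one past the threshold (Tgfb1, Tgfbr1, Tgfbr2, Tgfbi and Smad7), and the others had their highest 2 levels, not told apart by the test, in fibroblast, mural or mesothelial cells. In the pairs of lineages compared here, 41.8% to 75.6% of all genes differed, in either direction. Immune cells led for Tgfb1, Tgfbr1 and Tgfbi, endothelial cells for Smad7 and fibroblasts for Tgfbr2. The count was 5 or 6 under each alternative of counting, gating and leaving out a mouse.

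Narrower gates within a lineage split several of these levels. Among immune cells, the monocyte and macrophage gate (Csf1r) held 381 and 276 CPM of Tgfbi in WT and 501 and 492 CPM in Tubb3-/- mice, and the neutrophil gate (Csf3r) held 216 to 286 CPM, whereas the T cell gate (Cd3e) held 14.1 to 21.3 CPM. Tgfbi was thus high in the myeloid gates and low in lymphocytes, with 7.73 to 58.3 CPM in B cells. Tgfb1 was spread more evenly, at 204 to 255 CPM in the monocyte and macrophage gate, 140.5 to 215 CPM in NK cells (Ncr1), 136 to 165 CPM in B cells (Cd79a), 88.4 to 134 CPM in neutrophils and 88.5 to 108 CPM in T cells. Tgfbr1 stood at 187 to 247 CPM in the monocyte and macrophage gate and at 53.6 to 64.3 CPM in T cells. Tgfbr2 and Smad7 went the other way. T cells held 292 to 336 CPM of Tgfbr2 and 187 to 304 CPM of Smad7, and the monocyte and macrophage gate held 137 to 199.7 CPM and 15.7 to 29.5 CPM.

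Within the vessel wall, Ltbp1 stood at 109 to 130.5 CPM in general capillary cells (Gpihbp1) and at 86.8 to 196 CPM in venous cells (Slc6a2), while aerocytes (Apln), the gas-exchange capillary cells, held 0 to 13.6 CPM. For Tgfbr3 the order was turned, with 176 to 305 CPM in aerocytes and 103 to 121 CPM in general capillary cells, and these ranges did not overlap, while venous cells held 86.8 to 268 CPM and overlapped both. The aerocyte gate held 18 to 28 cells per mouse and the venous gate 6 to 13. Among epithelial cells, Tgfb2 stood at 62.4 to 202 CPM in the type 1 gate (Rtkn2) and at 4.41 to 36.7 CPM in the type 2 gate (Lamp3), which did not overlap either.

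Mural cells were split by which of Higd1b, a pericyte gene, and Myh11, a smooth muscle gene, had more UMIs (at least 2), a split chosen after the data were seen, because only 5 to 16 cells per mouse carried Higd1b and no Myh11. Ltbp1 and Ltbp2 were divided between these gates. Cells led by Higd1b held 842 to 982 CPM of Ltbp2 and 19.2 to 38.2 CPM of Ltbp1, and cells led by Myh11 held 120.02 to 199.9 CPM of Ltbp2 and 448 to 489 CPM of Ltbp1. Tgfbi followed Ltbp1, at 3.19 to 24.6 CPM against 58.5 to 87.8 CPM, and Tgfb2 stood in both, at 225 to 279.8 CPM and 237 to 343 CPM. Fibroblasts with a Cthrc1 UMI, a mark of fibrotic fibroblasts, held 328 to 577 CPM of Ltbp2 and those without held 129.8 to 343 CPM. In each mouse Ltbp2 was higher in the cells with Cthrc1, and so were all 3 ligands. Tgfb1 stood at 41.9 to 86.4 CPM against 26.8 to 38.5 CPM, Tgfb2 at 85.4 to 145 CPM against 48.5 to 80.02 CPM, and Tgfb3 at 111 to 142 CPM against 90.3 to 113 CPM. Lower in each mouse were Tgfbr3 (144 to 288 CPM against 230.2 to 379.7 CPM) and Tgfbr2 (399 to 516 CPM against 502 to 653 CPM).

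**Figure D4:**
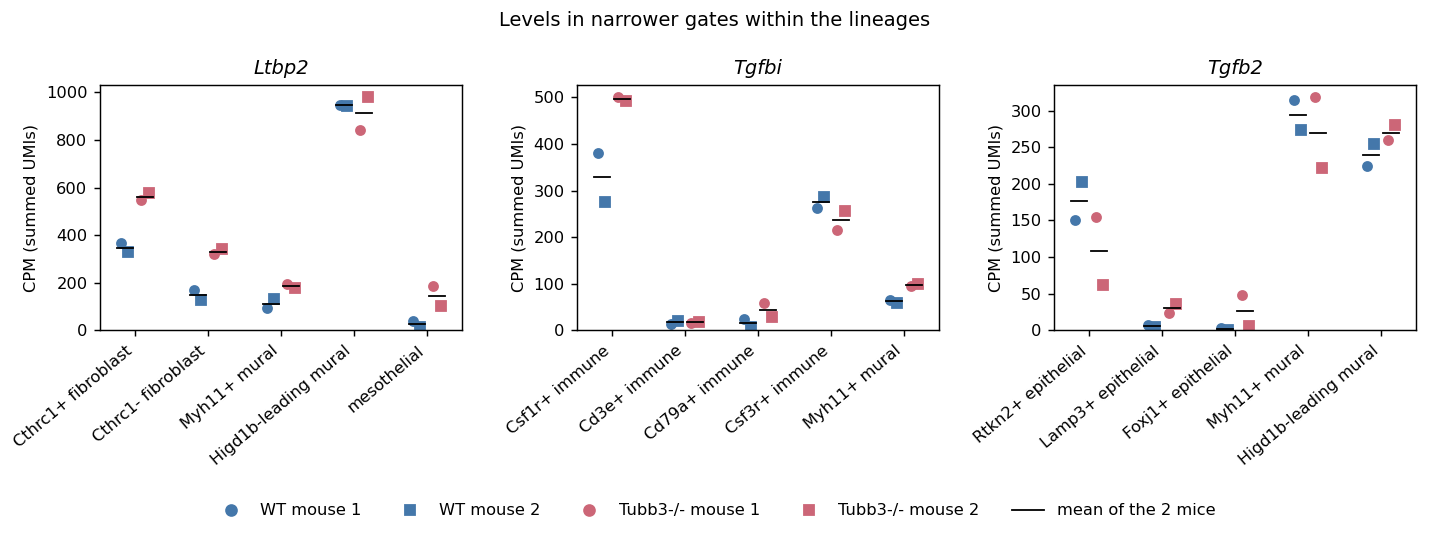
CPM of summed UMIs of Ltbp2, Tgfbi and Tgfb2 in narrower gates, with 1 point per mouse by genotype and a bar at the mean of each genotype. Ltbp2 is highest in the Higd1b-leading mural gate (842 to 982 CPM), Tgfbi in the Csf1r gate of immune cells (276 to 501 CPM), and Tgfb2 in the mural gates (Myh11+ means a Myh11 UMI and no Higd1b), with 62.4 to 202 CPM in Rtkn2-positive epithelial cells.

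For each member the 3 genes with the most similar pattern were taken by Pearson's r of log2(CPM + 1) over the 24 mouse-by-lineage sums, among 9937 genes whose mean reached 10 CPM. The r values are descriptions over 6 lineages of the same 4 mice. Tgfb1 was closest to Prcp (0.96), Plgrkt and AU020206, Tgfb2 to Htra1 (0.97), Fgf18 and Gucy1a2, and Tgfb3 to Sdc2 (0.98), Snhg18 and Myh10. Tgfbr1 was closest to Sh3pxd2b (0.91), G0s2 and Zbtb1, Tgfbr2 to Gyg (0.95), Gas7 and the gate gene Pdgfra, and Tgfbr3 to Armcx3 (0.98), Gulp1 and Ltbp4. Ltbp1 was closest to Lix1l (0.99), Sparcl1 and Dpysl3, Ltbp2 to Col6a3 (0.97), Kdelr3 and Podxl2, Tgfbi to Trpv2 (0.95), Nsa2 and Tmem123, and Smad7 to Cpd (0.94), Fas and Cyth3. Htra1 encodes a secreted protease, Sdc2 a heparan sulfate proteoglycan and Col6a3 a chain of type VI collagen. Between members the highest r values were those of Tgfbr3 with Ltbp1 (0.94) and of Tgfb2 with Tgfb3 (0.91).

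The comparison of Tubb3-/- with WT mice asked whether loss of β-III tubulin changed these genes in any lineage. No member passed the test in any of the 6 lineages, and a p-value here measures only the spread between 2 mice per genotype, which differ in sex. With the replicate number as a block, edgeR called Ltbp2, Tgfbr3 and Tgfb1 in fibroblasts, Tgfbi in mural cells, and Ltbp2 and Tgfbi in mesothelial cells. With 2 pairs the numbers were not taken to pair the mice, and these calls are given in the closing section. At an unadjusted p under 0.05 stood 12 of the 60 tests of a member in a lineage (11.1% of the tests over all genes). DESeq2 called 1 of 60, Ltbp2 in fibroblasts (1.18% of the tests over all genes). Few genes of any kind were called by edgeR in these sums (percent called 0 in fibroblasts, mural, immune, endothelial and epithelial cells and 0.231 in mesothelial cells), although 445 to 2683 genes had an unadjusted p under 0.05 and DESeq2 called 3 to 506 in the first 5 of these. In fibroblasts both Tubb3-/- mice were above both WT mice for 4 of 10 members (24.5% of all genes) and below them for 3 (23.6%). The numbers above and below were 1 and 1 in mural cells (22.2% and 18.7% of all genes), 3 and 1 in immune cells (19% and 21.1%), 4 and 3 in endothelial cells (21.1% and 23.8%), 3 and 1 in epithelial cells (21.6% and 12.6%), and 4 and 1 in mesothelial cells (18.9% and 18.6%). Counted by overlap, the members as a group thus separated by genotype about as often as other genes, and Ltbp2 and Tgfbi were each higher without overlap in 4 lineages.

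**Figure D5:**
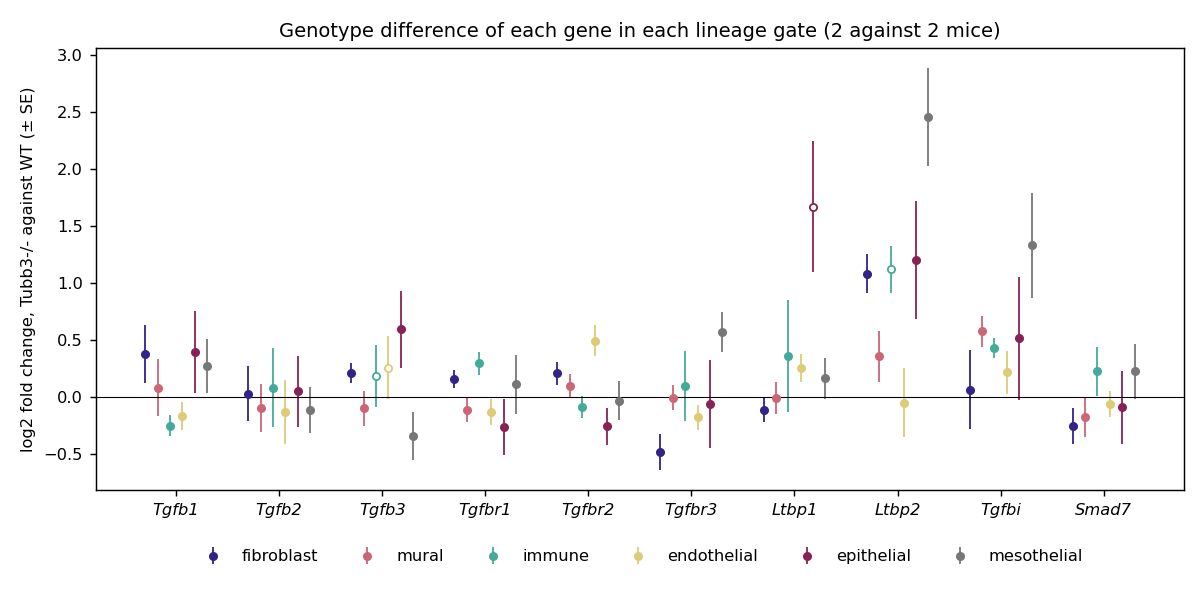
Log2 difference (Tubb3-/- minus WT, edgeR, TMM-normalized) of the 10 members in the 6 lineages, with bars of 1 SE, and open circles where the mean level was under 10 CPM. The values of Ltbp2 lie above 1 in fibroblast, immune, epithelial and mesothelial cells, and those of Tgfbr3 lie on opposite sides of 0 in fibroblasts (−0.48) and mesothelial cells (0.57).

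Over the 6 lineages, Ltbp2 had the lowest adjusted p of the members. Its fibroblast values of 217 and 168 CPM in WT and 401 and 420.3 CPM in Tubb3-/- mice did not overlap, with a log2 difference of 1.08 ± 0.17 (adjusted p = 0.0869, edgeR). The summed mural markers (Cox4i2, Ndufa4l2, Notch3, Cspg4, Acta2 and Cnn1) in the fibroblast gate were also higher there, at 349 and 352 CPM in WT and 655 and 487 CPM in Tubb3-/- mice (6 of 6 detected). Acta2 also belongs to the TGF-beta response list used below, so the sum does not tell mural RNA from that of fibroblasts. Its part in the Ltbp2 values was not tested. In mesothelial cells the values were 40.8 and 14.9 CPM in WT and 186 and 102 CPM in Tubb3-/- mice, with a log2 difference of 2.46 ± 0.43 (adjusted p = 0.0702, edgeR). The mesothelial values rest on 41 and 22 UMIs in the WT mice and 208 and 111 UMIs in the Tubb3-/- mice. The Ltbp2 difference stood on both sides of the Cthrc1 split of the fibroblasts. Cells with Cthrc1 held 366 and 328 CPM in WT and 547 and 577 CPM in Tubb3-/- mice (log2 0.72 ± 0.13, adjusted p = 0.113, edgeR), and cells without it held 170.2 and 129.8 CPM in WT and 319.9 and 343 CPM in Tubb3-/- mice (log2 1.11 ± 0.17, adjusted p = 0.0946, edgeR), and DESeq2 called both (0.00378 and 2.17e-05). The share of fibroblasts with a Cthrc1 UMI was 21.1% and 17.4% in WT and 31.97% and 29.03% in Tubb3-/- mice, or 6.38%, 4.65%, 12.4% and 10.1% with each cell thinned to 2000 UMIs, and its part in the result over the whole gate was not tested. Immune cells, as background, held Cthrc1 in 2.75% to 4.17% of cells unthinned and 0.636% to 1.20% thinned. Thinned in the same way, 23.7% and 17.0% of fibroblasts held an Ltbp2 UMI in WT and 42.3% and 42.6% in Tubb3-/- mice, against 58.0%, 44.9%, 78.0% and 76.6% unthinned. As background, immune cells held 1.20% to 2.17% thinned and 4.84% to 6.10% unthinned, at median depths of 6644 to 7093 UMIs against 14687 to 19221 UMIs in fibroblasts. Within each sex the Tubb3-/- level was 1.84-fold (males) and 2.51-fold (females) the WT level in fibroblasts, and 4.56-fold and 6.85-fold in mesothelial cells. The call depended on the test and the mice. DESeq2 called Ltbp2 in fibroblasts (adjusted p = 7.89e-06) but not in mesothelial cells (0.285), and edgeR called it in fibroblasts without WT replicate 1 (log2 1.34, adjusted p = 0.00292) or without WT replicate 2 (log2 0.88, adjusted p = 0.0138) and in mesothelial cells with any 1 mouse left out (log2 1.84 to 3.26).

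Fibroblast markers were also higher in these mesothelial and mural cells of the Tubb3-/- mice. The summed level of the 6 fibroblast markers, all detected, was 5336 and 5752 CPM in WT and 8522 and 7435 CPM in Tubb3-/- mesothelial cells, and 4423 and 3959 CPM against 7261 and 6956 CPM in mural cells. Their part in the mesothelial Ltbp2 values was not tested. Mural cells as a whole overlapped (142 and 252 CPM in WT, 242 and 258 CPM in Tubb3-/- mice). In the Myh11 gate, the mural cells with a Myh11 UMI and no Higd1b, Ltbp2 stood at 93.4 and 133 CPM in WT and at 193 and 179.7 CPM in Tubb3-/- mice (log2 0.72 ± 0.15, adjusted p = 0.101, edgeR; DESeq2 called it, 0.00137), while Higd1b-led cells held 949 and 942 CPM in WT and 842 and 982 CPM in Tubb3-/- mice, which overlapped. The pericyte gate first planned, Higd1b without Myh11, held 460 and 598 CPM in WT and 510 and 1069 CPM in Tubb3-/- mice, from 5 to 16 cells per mouse, and overlapped as well (log2 0.54 ± 0.52). Higd1b-led cells made up 2.81% and 9.85% of mural cells in WT and 4.69% and 5.70% in Tubb3-/- mice, and their part in the mural Ltbp2 values, lowest in WT replicate 1, was not tested. Immune cells held 5.65 and 5.92 CPM in WT and 10.54 and 14.5 CPM in Tubb3-/- mice, but the monocyte and macrophage gate held 4.90 to 5.96 CPM in all 4 mice, with overlap, and the fibroblast markers in immune cells were 258 and 379 CPM in WT and 541 and 399 CPM in Tubb3-/- mice.

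Tgfbi was higher without overlap in mural, immune, endothelial and mesothelial cells of the Tubb3-/- mice, though at 13.5 to 15.97 CPM in the endothelial cells and 10.8 to 40.3 CPM in the mesothelial cells. The mural values given above differed by 0.58 ± 0.13 on the log2 scale (adjusted p = 0.249, edgeR), and the Myh11 gate held 65.5 and 59.2 CPM in WT and 94.9 and 99.2 CPM in Tubb3-/- mice (log2 0.62 ± 0.10, adjusted p = 0.0603, edgeR). DESeq2 called Tgfbi in the Myh11 gate (0.00759), and edgeR called it in mural cells without the filter on low counts (0.000131). The immune values differed by 0.43 ± 0.09 (adjusted p = 0.404, edgeR). Within that lineage the monocyte and macrophage gate differed by 0.64 ± 0.18 (adjusted p = 0.364, edgeR), without overlap between genotypes, and neutrophils held 263 and 286 CPM in WT and 216 and 257 CPM in Tubb3-/- mice. Without WT replicate 1, edgeR called Tgfbi in immune cells (adjusted p = 0.0484), in the monocyte and macrophage gate (0.00761) and in the Myh11 gate (0.011), and without WT replicate 2 it called none of these, with a log2 difference of 0.39 in the monocyte and macrophage gate (adjusted p = 0.581). The share of the monocyte and macrophage gate among immune cells was 17.8% and 20.9% in WT and 18.3% and 21.7% in Tubb3-/- mice, which overlapped.

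Tgfbr3 was lower without overlap in fibroblasts of the Tubb3-/- mice and higher without overlap in their mesothelial cells, with the values given above. The log2 difference was −0.48 ± 0.16 in fibroblasts (adjusted p = 0.208, edgeR) and 0.57 ± 0.17 in mesothelial cells (adjusted p = 0.325, edgeR). In fibroblasts without Cthrc1 it stood at 294 and 379.7 CPM in WT and 230.2 and 277 CPM in Tubb3-/- mice (log2 −0.43 ± 0.14, adjusted p = 0.222, edgeR), and in those with Cthrc1 the 2 genotypes overlapped. Without WT replicate 1 the fibroblast difference was −0.63 and was called (adjusted p = 0.0439, edgeR), and it was −0.29 without WT replicate 2, −0.34 without Tubb3-/- replicate 1 and −0.62 without Tubb3-/- replicate 2, none of them called (0.344, 0.755 and 0.562). The difference of the genotype effect between mesothelial cells and fibroblasts was 1.05 ± 0.22 on the log2 scale and did not pass the threshold (adjusted p = 0.145, edgeR). Over all lineages together, the interaction test called none of the 10 members (0.0367% of 16350 genes were called), and 3 had an unadjusted p under 0.05 (as did 1398 of the 16350 genes), namely Tgfbr2, Tgfbr3 and Ltbp2 (adjusted p = 0.335, 0.349 and 0.407, edgeR). It called Ltbp2 without WT replicate 1 (adjusted p = 0.0369) and Tgfbr3 and Ltbp2 without the filter on low counts (0.0294 and 3.54e-06).

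Further members that did not overlap in a lineage follow where the unadjusted p was under 0.05. Those with a larger p are in the counts above, and their genotype differences are not printed. Tgfbr2 in endothelial cells stood at 131 and 114 CPM in WT and at 184 and 156 CPM in Tubb3-/- mice (log2 0.49 ± 0.14, adjusted p = 0.206, edgeR), without overlap, and edgeR called it without the filter on low counts (0.00287). In immune cells Tgfb1 was −0.25 ± 0.09 on the log2 scale (adjusted p = 0.597, edgeR) and Tgfbr1 0.30 ± 0.10 (adjusted p = 0.586, edgeR), both without overlap between genotypes. Ltbp1 in epithelial cells (2.91 to 20.9 CPM) did not overlap either, at 4 to 30 UMIs per mouse (log2 1.67 ± 0.57, adjusted p = 0.976, edgeR). Tgfb1 in fibroblasts overlapped, at a log2 difference of 0.38 (adjusted p = 0.475, edgeR), and without WT replicate 1 it was 0.79 and was called (0.0424). Tgfb2 overlapped between the genotypes in all 6 lineages, and Smad7 in 5 of them. Within fibroblasts, those without Cthrc1 held 80.0 and 52.3 CPM of Tgfb2 in WT and 48.50 and 48.55 CPM in Tubb3-/- mice, without overlap (log2 −0.49 ± 0.23, adjusted p = 0.355, edgeR). In those with Cthrc1 the genotypes overlapped and the sign was the other one (log2 0.36 ± 0.21, adjusted p = 0.495, edgeR).

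The remaining genes of the pathway were taken as 3 lists. Of 18 genes for latency and activation (other LTBPs, integrins, proteases and matrix carriers), none passed edgeR's test in any lineage, while 28 of 93 tests of a gene in a lineage had an unadjusted p under 0.05 (11.1% of the tests over all genes) and DESeq2 called 6 (1.18%). The membrane protease gene Mmp14 was higher in both Tubb3-/- mice in all 6 lineages, for instance at 237 and 207 CPM in WT and 323 and 321 CPM in Tubb3-/- fibroblasts (log2 0.53 ± 0.13, adjusted p = 0.14, edgeR). Ltbp4, whose protein also binds latent TGF-beta, was lower in both in fibroblasts, at 618 and 685 CPM against 449 and 461 CPM (log2 −0.52 ± 0.10, adjusted p = 0.104, edgeR), as well as in endothelial and mesothelial cells.

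Of 22 genes for the receptor and SMAD machinery, none passed edgeR's test either, 24 of 129 tests had an unadjusted p under 0.05 (against the same 11.1%), and DESeq2 called 2 (against the same 1.18%), both lower. In 30 of the 129 tests both Tubb3-/- mice were above both WT mice, and in 36 both were below. Over all genes the shares by lineage were 18.9% to 24.5% above and 12.6% to 23.8% below. Bambi, which encodes a decoy receptor, was lower in both Tubb3-/- mice in 5 lineages, at 60.8 and 71.5 CPM in WT against 41.1 and 47.5 CPM in Tubb3-/- fibroblasts (log2 −0.58 ± 0.10, adjusted p = 0.0952, edgeR). In mesothelial cells Bambi stood on the other side, at 20.9 and 35.2 CPM against 62.7 and 44.1 CPM (log2 0.89 ± 0.31, adjusted p = 0.433, edgeR). Smad6, the other inhibitory SMAD gene, was lower in endothelial cells, at 360.4 and 499 CPM against 242 and 298 CPM (log2 −0.66 ± 0.17, adjusted p = 0.19, edgeR). Pmepa1 of the same list was higher in both Tubb3-/- mice in fibroblast, mural, endothelial and mesothelial cells. In fibroblasts it stood at 841 and 750 CPM in WT against 1063 and 1084 CPM in Tubb3-/- mice (log2 0.42 ± 0.13, adjusted p = 0.2, edgeR).

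The 35 genes of the TGF-beta response list, among them the collagen genes and other matrix genes, had the largest differences. The list was drawn up with earlier results of these data known. In fibroblasts 22 of 35 were above both WT mice in both Tubb3-/- mice (24.5% of all genes) and 5 were below (23.6%), with a median log2 difference of 0.57 against −0.0044 over all genes. In mural cells 20 of 35 were above and 3 below (median 0.38, 22.2% and 18.7% of all genes), in immune cells 19 of 33 and 2 (median 0.48, 19% and 21.1%), and in mesothelial cells 19 of 30 and 2 (median 0.89, 18.9% and 18.6%). The counts were lower in endothelial cells, at 8 of 33 above and 2 below (median 0.13, 21.1% and 23.8% of all genes), and in epithelial cells, at 11 of 27 and 0 (median 0.31, 21.6% and 12.6%). None passed edgeR's test in fibroblasts, mural, immune, endothelial or epithelial cells, where 21, 17, 15, 5 and 4 had an unadjusted p under 0.05 (18.2%, 11.1%, 8.23%, 13.5% and 4.27% of all genes). In these lineages DESeq2 called 11, 12, 4, 1 and 0 (3.42%, 1.09%, 0.498%, 0.968% and 0.0288% of all genes). In mesothelial cells edgeR called 3 of 30, all higher (0.231% of all genes were called), and DESeq2 called 6 (0.378%). At an unadjusted p under 0.05 stood 19 of the 30 (8.37% of all genes). The summed fibroblast markers of this gate, Col1a2 among them, were also higher in both Tubb3-/- mice, as they were in mural and immune cells (values above). Their part in these counts was not tested. The 3 genes edgeR called were Adam12, a metalloprotease gene, at 5.97 and 6.77 CPM in WT and 60.02 and 30.3 CPM in Tubb3-/- mice (log2 2.80 ± 0.44), Cthrc1 (log2 2.65 ± 0.42) and the collagen chain gene Col1a2 (log2 1.16 ± 0.17), with adjusted p = 0.0499, 0.0499 and 0.0442 (edgeR). Mesothelial Cthrc1 rested on 27 and 11 UMIs in WT and on 124 and 97 UMIs in Tubb3-/- mice. The share of mesothelial cells with a Cthrc1 UMI was 17.3% and 10.8% in WT and 17.8% and 18.1% in Tubb3-/- mice. Thinned to 2000 UMIs per cell, it was 5.56% and 2.13% against 4.17% and 7.14%, which overlapped. In fibroblasts, Cthrc1 stood at 69.9 and 51.4 CPM in WT and 207 and 99.8 CPM in Tubb3-/- mice, and Postn, a matrix protein gene, at 58.7 and 40.4 CPM against 141 and 98.6 CPM (adjusted p = 0.172 and 0.117, edgeR), while Junb, an early response gene, was lower at 2723 and 2466 CPM against 1812 and 1711 CPM (adjusted p = 0.158, edgeR).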

How the data were processed

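Lungs of 2 WT and 2 Tubb3-/- mice were profiled by 3′ single-cell RNA-seq in 2 tagged pools. Per the labels and the study's methods, the authors aligned reads to mm10 with Cell Ranger 7.1.0, split the mice by sample tag and deposited UMI counts per gene and cell, 1 matrix per mouse and pool (8 libraries, 32286 genes and 12 tag features). Whether counting used strand is not given in the sources used here. Cells with 200 to 7500 genes and at most 15% mitochondrial UMIs were kept, as in the study, and 768 of 30860 with a Scrublet score above 0.25 (scanpy 1.11.5) were left out as doublets, a fixed score because the automatic threshold marked only 2 cells of the whole-cell pool.

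UMIs were summed per mouse and lineage gate, and divided by the summed total for CPM. Groups followed the mouse's tag in the labels. Genotypes were compared 2 against 2 within a gate with edgeR 4.0.16 (R 4.3.3; filterByExpr, TMM, quasi-likelihood test), Benjamini-Hochberg over all genes tested and a threshold of 0.05. DESeq2 1.42.0, other filters, gates, pools and left-out mice were alternatives. The code was tested on simulated counts. All 10 members are named in every lineage. Of the 3 pathway lists, genes could be named where both Tubb3-/- mice lay on one side of both WT mice at a mean of at least 10 CPM, up to 3 each way per lineage. The text names only some of these genes. Markers of all gates and of red blood cells were checked. The members and lists were chosen with earlier results of these data known, and the split of mural cells by the leading gene was added after the data were seen.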

Additional observations from a re-analysis of the deposited data

How the results depend on the processing

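The number of genes called between genotypes depended on the test and on which mouse was left out, and the cause was not tested. With edgeR it was 0 in the fibroblast, mural, immune, endothelial, epithelial and pericyte gates, 22 in mesothelial cells, 4 and 1 in fibroblasts with and without Cthrc1, 74 in the Myh11 gate and 3 in the monocyte and macrophage gate. DESeq2 called 506 in fibroblasts, 158 in mural, 70 in immune, 123 in endothelial, 3 in epithelial and 36 in mesothelial cells, 2 in the pericyte gate, 206 and 320 in fibroblasts with and without Cthrc1, 241 in the Myh11 gate and 37 in the monocyte and macrophage gate. Without the low-count filter the counts were 850 in mural, 266 in immune, 872 in endothelial, 164 in epithelial and 323 in mesothelial cells, among them Tgfbi in mural, Ltbp2 in immune (adjusted p = 0.00361, edgeR), Tgfbr2 in endothelial and Ltbp2 and Tgfbi in mesothelial cells (3.07e-15 and 0.0458, edgeR). The whole-cell pool alone gave 2 in mural, 1 in endothelial and 0 in mesothelial cells, the mural cell-enriched pool alone 24 in endothelial and 8 in mesothelial cells, gating at 2 or more UMIs 40 in mural and 191 in endothelial cells, and keeping doublets 34 in mesothelial cells.

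Leaving out 1 mouse at a time gave 0 to 998 in fibroblasts (998 without WT replicate 1 and 527 without WT replicate 2), 4 to 445 in mural, 0 to 631 in immune, 7 to 98 in endothelial, 0 to 29 in epithelial and 63 to 344 in mesothelial cells, 0 to 388 and 0 to 1022 in fibroblasts with and without Cthrc1, 0 to 48 in the pericyte gate, 92 to 338 in the Myh11 gate and 17 to 215 in the monocyte and macrophage gate. The lone mouse was then taken to vary like the other genotype. The members called by the interaction test were 0 to 1 with a mouse left out and 2 without the low-count filter, and the members with a highest lineage above the next were 5 to 6.

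With the replicate number as a block, 1762 genes were called in fibroblasts, 348 in mural, 18 in immune, 48 in endothelial and 275 in mesothelial cells, 544 and 685 in fibroblasts with and without Cthrc1, 4 in the pericyte gate, 735 in the Myh11 gate and 148 in the monocyte and macrophage gate. Among members, the block called Ltbp2 (adjusted p = 0.000594), Tgfbr3 (0.00423) and Tgfb1 (0.0364) in fibroblasts, Tgfbi in mural cells (0.0383), and Ltbp2 and Tgfbi in mesothelial cells (6.65e-18 and 0.0457, edgeR). Mice of the same number share sex, and their deviations from the genotype means correlated at 0.55 in fibroblasts, 0.45 in mural, 0.39 in immune, 0.08 in endothelial, 0.08 in epithelial and 0.14 in mesothelial cells, but with 2 pairs the numbers were not taken to pair the mice.

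Some log2 differences of single members, none past the threshold, changed sign. Ltbp1 in fibroblasts was 0.04 in the whole-cell pool, Tgfbr1 in mural cells 0.00 without Tubb3-/- replicate 2 (and from −0.22 without another mouse), Tgfb1 and Tgfbr1 in immune cells 0.00 and −0.39 in the mural cell-enriched pool, which held 13 to 32 immune cells per mouse, Tgfb1 in endothelial cells 0.08 in that pool, Tgfb1 in mesothelial cells −0.52 in the whole-cell pool and −0.05 with gating at 2 UMIs, and Tgfb2 in pericytes 0.17 with the split by the leading gene. Depth limited the epithelial and mesothelial gates, with 72 to 102 cells per mouse, and the pericyte gate, with 5 to 16.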
